A study of Mus musculus with 18 samples.

Results

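Cytosolic nucleic acid sensors and adaptors were represented by 10 genes: the RNA helicases Ddx58 (RIG-I), Ifih1 (MDA5) and Dhx58 (LGP2), the RNA-dependent kinase Eif2ak2 (PKR), the nucleic acid binding proteins Zbp1, Ifi204 and Trex1, the adaptors Mavs and Tmem173 (STING), and the kinase Tbk1. They were the rows of the deposited table that carry these names, 10 of 55450 genes. No measured value entered that rule, but the members were chosen with earlier results of these data known. All 10 were among the 21161 genes that passed the low-count filter, so every member was tested in every comparison.

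The data were poly(A) RNA sequencing libraries of mouse embryonic fibroblasts (MEF), a fibroblast culture from a commercial repository, transfected with a lipid reagent carrying empty pcDNA3 plasmid, Col1a1-miR-29b or CMV-miR-29b. TGF-β, the growth factor used as the fibrotic stimulus, was either left out or added 6 h after transfection for 24 h, which gives 6 groups of 3 libraries and 18 libraries in all. Both miR-29b plasmids carry the human miR-29b-1 sequence together with EGFP and a red fluorescent marker under another promoter, whereas the empty plasmid is the bare backbone. In Col1a1-miR-29b the miRNA is driven by a rat collagen promoter, and in CMV-miR-29b by the viral CMV promoter. All 18 libraries came from cells that had received plasmid DNA, and untransfected cells were not analysed here. By the study's methods the plasmids were dosed by molar amount, so the longer Col1a1-miR-29b plasmid was given at the larger DNA mass. DNA mass, promoter, reporter genes and miR-29b therefore cannot be told apart in a comparison of plasmids. The methods describe repeated experiments for each group, and the p-values measure only the spread between those repeats.

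Total counts ran from 65898017 to 80332633 per library, with a median of 74155860. Libraries of one group correlated at 0.976 to 0.982 over 13912 genes. These genes had a mean of at least 1 CPM (counts relative to the TMM-scaled library size). The count columns of 2 Col1a1-miR-29b libraries, 1 with and 1 without TGF-β, carry a letter that matches no sample label, and they are called unlettered here. Mir29b-1, the mouse gene whose reads check the plasmids, had 0 counts in the 6 empty vector libraries, 0 to 1 in Col1a1-miR-29b cells and 2 to 6 after TGF-β. It had 110 to 309 counts in CMV-miR-29b cells and 203 to 293 with TGF-β, and poly(A) libraries count precursor transcripts rather than the mature miRNA. Fibroblast markers fitted the label except Thy1, with at most 8 counts, and Lum, with 0. The summed level of the 12 fibroblast markers was 5037 to 5509 CPM in empty vector cells. It was 4071 to 4558 for Col1a1-miR-29b and 4410 to 4952 under CMV-miR-29b. With TGF-β the same sums were 7911 to 8865, 6383 to 6470 and 6741 to 7360 CPM. The 10 immune cell markers summed to 21.9 to 27.9 CPM over the 6 groups. The highest of them were Cd68 (8.41 to 13.1 CPM), Cd14 (5.88 to 10.3) and Lyz2 (3.96 to 5.86), whereas Ptprc, the pan-leukocyte marker, had at most 25 counts. In bulk RNA, fewer cells of a type and less RNA per cell cannot be told apart.

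Cells watch their cytosol for RNA and DNA that do not belong there. RIG-I and MDA5 bind viral-type RNA and signal through MAVS on the mitochondrial surface, LGP2 modulates both, and PKR stops translation when it binds long double-stranded RNA. STING answers a cyclic dinucleotide made by cGAS on cytosolic DNA, Ifi204 belongs to a family of DNA binding proteins, Zbp1 binds left-handed nucleic acid, and the exonuclease Trex1 removes cytosolic DNA. The MAVS and STING routes meet at TBK1, which phosphorylates interferon regulatory factors, and many sensors are themselves interferon-stimulated genes. Fibroblasts express most of this machinery, and transfected plasmid is one of its known ligands.

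On GRCm38 the RNA sensors lie at chr4:40203773-40239825 (Ddx58), chr2:62595798-62646211 (Ifih1), chr11:100694884-100704271 (Dhx58) and chr17:78852564-78882573 (Eif2ak2), all on the minus strand. RefSeq promoter windows, which run from 250 bases before to 50 bases after a start site on GRCm38.p6, were given for 6 of the 10 genes (Ifih1, Ddx58, Trex1, Mavs, Tbk1 and Eif2ak2). The core of the interferon-stimulated response element (ISRE, GAAA, any 2 bases, GAAA, searched on both strands) stood in the windows of 3 genes, against 3.43% of all 32817 windows. The gamma-activated site core (GAS, TTCNNNGAA, both strands) stood in 1, that of Eif2ak2, against 8.29% of all windows. The 3 ISRE matches are shown because their genes are the RNA sensors whose levels are described next, with the match in capitals and the sequence read 5′ to 3′ on the gene's strand.
Ifih1, chr2:62646206-62646233, minus strand: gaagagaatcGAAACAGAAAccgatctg
Ddx58, chr4:40239804-40239833, minus strand, match on the other strand: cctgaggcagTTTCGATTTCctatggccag
Eif2ak2, chr17:78882535-78882564, minus strand: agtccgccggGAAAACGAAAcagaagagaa
All 3 matches fell in the last 50 bases of the window, after the RefSeq start site. By the deposited gene coordinates given above, however, the Ifih1 match (chr2:62646214-62646223) lies just before the start of that gene. The RefSeq and deposited starts of Ifih1 thus differ, and which of them these cells used was not tested. Upstream of Eif2ak2 the 250 bases before the start carried the GAS core, in capitals, which reads as a match on both strands.
Eif2ak2, chr17:78882573-78882822, minus strand: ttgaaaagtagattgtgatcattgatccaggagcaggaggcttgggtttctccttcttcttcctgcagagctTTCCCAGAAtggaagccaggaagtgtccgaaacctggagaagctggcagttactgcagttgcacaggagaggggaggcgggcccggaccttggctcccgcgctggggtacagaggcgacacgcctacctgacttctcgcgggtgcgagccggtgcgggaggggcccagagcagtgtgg
These matches are descriptions of the sequence, not evidence of binding.

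The plasmids encode miR-29b, so the members were also searched for its seed match. The mature miRNA, from RefSeq, is shown with its seed (bases 2 to 8) in capitals.
mmu-miR-29b-3p, Mir29b-1, chr6:31063025-31063047, minus strand: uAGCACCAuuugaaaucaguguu
The reverse complement of that seed, TGGTGCT, occurred in the longest annotated 3′ UTR of 1 of the 10 members, Ddx58, at base 152 of 961. Among tested genes with an annotated 3′ UTR, 2132 of 14377 (14.8%) held it.
Ddx58 3′ UTR site: tggtttcaagcTGGTGCTgtccacacaaa

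Among the other members, Zbp1 lies at chr2:173206612-173218923, Ifi204 at chr1:173747293-173766943, Trex1 at chr9:109057933-109059734 and Tbk1 at chr10:121546455-121586787, all on the minus strand. Mavs lies at chr2:131234063-131248025 on the plus strand, and Tmem173 at chr18:35733679-35740489 on the minus strand. Trex1 sits wholly inside Atrip on the same strand, over 1802 bases. Dhx58 overlaps the antisense gene Dhx58os by 2637 bases, and Eif2ak2 overlaps Gm26637 on the opposite strand by 532 bases. The library kit keeps strand, but whether counting used it is not given in the sources used here. Ifi204 belongs to a cluster of closely similar genes, so reads may have been split among them and its values are uncertain.

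Levels per transcript length came from the authors' FPKM, which were used for 16 of the 18 libraries. Eif2ak2 had the highest level of the members, with a median of 63.2 FPKM (range 50.3 to 74), followed by Ifi204 at 44.9 (35.1 to 51.3) and Ddx58 at 36.5 FPKM (31.8 to 41.8). Every library had Eif2ak2 above Ifi204, and Ifi204 exceeded Ddx58 in 15 of 16, although the ranges of both pairs overlapped. A gap then separated these from the rest: each library had Ddx58 above Tbk1, whose median was 17.4 FPKM (15 to 19.9), and this was the only neighbouring pair whose ranges did not touch. Dhx58 (median 16.1 FPKM, 9.89 to 21.2), Mavs (10.5, 10.1 to 12.4) and Tmem173 (10.2, 5.92 to 17.1) came next. Tbk1 exceeded Dhx58 in 10 of 16 libraries and Mavs exceeded Tmem173 in 8, so these neighbours had no settled order, whereas Dhx58 exceeded Mavs in 15. Lowest were Zbp1 (7.64, 4.92 to 11), Ifih1 (5.79, 5.17 to 7.24) and Trex1 (3.12, 1.12 to 8.62 FPKM). The exonuclease Trex1 thus had both the lowest level and the widest relative range, and its 107 to 813 counts per library were far fewer than the 21102 to 31714 of Eif2ak2. Because Trex1 lies wholly inside Atrip on the same strand, even stranded reads may have been shared between them, so its values are uncertain.

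**Figure D1:**
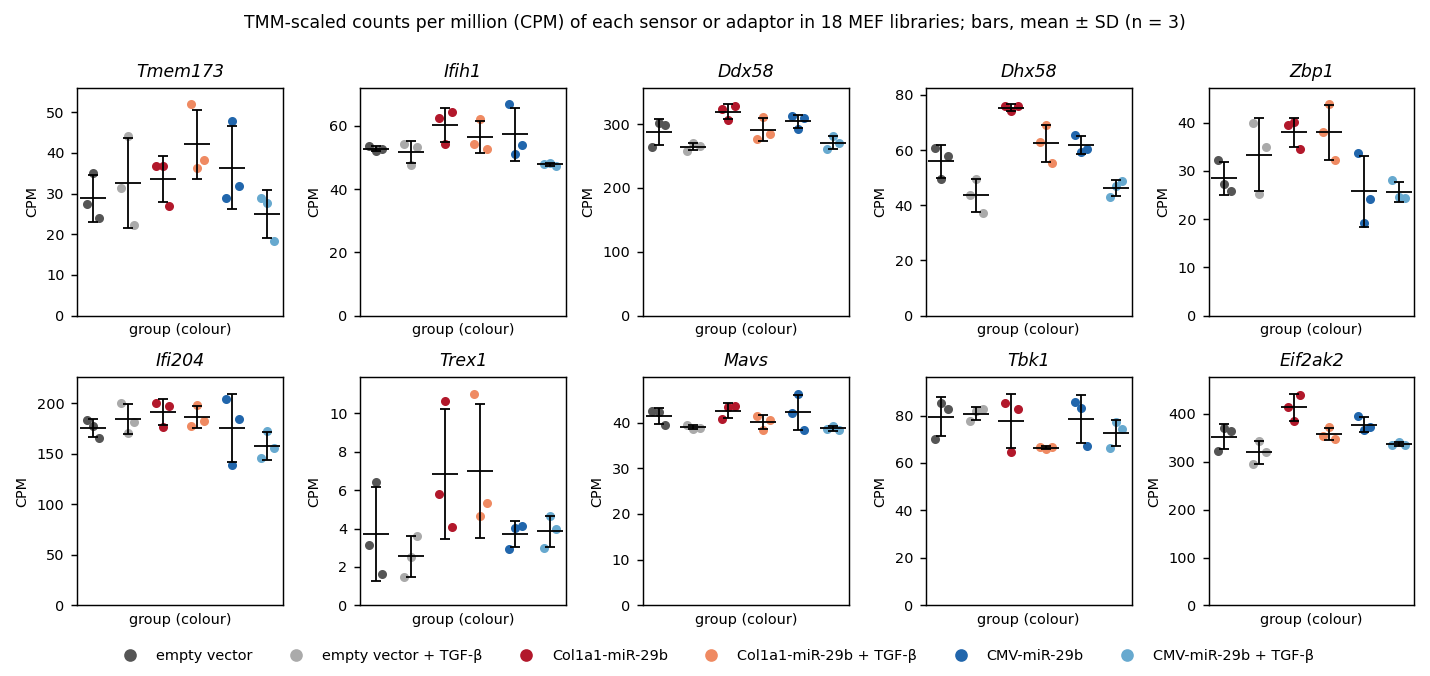
Level of each of the 10 members in all 18 libraries, in CPM after TMM scaling (vertical axis, a separate scale for each gene starting at 0), by group (horizontal position and colour), with 1 point per library and black bars for the mean ± SD (n = 3). Dhx58 is between 74.0 and 76.0 CPM in the 3 Col1a1-miR-29b libraries and between 49.4 and 60.8 in the 3 empty vector libraries, while Mavs stays between 38.3 and 46.2 CPM throughout.

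Col1a1-miR-29b was first set against the empty vector to ask how cells with the collagen-promoter plasmid differed when no TGF-β was added. Dhx58 and Eif2ak2, both sensors of RNA, were the 2 of 10 members called higher, and none was called lower (adjusted p under 0.05, edgeR quasi-likelihood test). Over all genes 6.27% were called in this comparison and 2.57% were called higher; of the called genes 40.9% were higher, and 51.4% when libraries were scaled by total counts. The members' median log2 fold change was 0.21 against 0.02 over all tested genes, and 9 of the 10 were positive. At an unadjusted p under 0.05 there were 4 members, and DESeq2 called 2. Over the 21161 tested genes the same counts were 4560 and 2336.

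Dhx58 had 60.8, 49.4 and 57.7 CPM in empty vector replicates c, d and e, and 76.0, 74.0 and 76.0 CPM in the Col1a1-miR-29b libraries. Every Col1a1-miR-29b library was above every empty vector library, and the 3 treated values lay close together. Dhx58 was 1.35-fold higher (log2 fold change 0.43, SE 0.10, 95% confidence interval 0.21 to 0.65, adjusted p = 0.0237). Its antisense neighbour Dhx58os, at 167 to 370 counts per library, differed by 0.19 on that scale (adjusted p = 0.685). This Dhx58 call held when empty vector replicate c was left out (0.48, adjusted p = 0.0467). It was lost without empty vector replicate d (0.34, 0.115) or e (0.44, 0.0515), or without Col1a1-miR-29b replicate c (0.42, 0.0653), d (0.42, 0.076) or the unlettered one (0.42, 0.0704).

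Eif2ak2 had 322, 371 and 364 CPM in empty vector cells and 415, 385 and 440 CPM in Col1a1-miR-29b cells. The groups did not overlap, although the highest empty vector library came within a few percent of the lowest Col1a1-miR-29b one. The kinase was 1.17-fold higher (log2 fold change 0.23, SE 0.06, 95% interval 0.10 to 0.37, adjusted p = 0.0408). Its call was lost whichever of the 6 libraries was left out, with log2 fold changes of 0.16 to 0.26 and adjusted p of 0.0615 to 0.206. Gm26637, on the opposite strand, had 86 to 208 counts per library and was itself called higher (0.73, adjusted p = 0.0474), and its part in the Eif2ak2 counts was not tested.

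The other RNA helicases had smaller differences. Ddx58 had 265, 301 and 298 CPM in empty vector cells and 323, 307 and 328 in Col1a1-miR-29b cells, with groups apart (log2 fold change 0.15, 95% interval 0.03 to 0.27, adjusted p = 0.117). Ifih1 had 53.7, 51.9 and 52.7 CPM against 62.3, 54.3 and 64.4, again with no overlap (0.19, -0.01 to 0.39, adjusted p = 0.252). Neither passed the test.

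Of the nucleic acid binding proteins, Zbp1 gave 32.3, 27.2 and 25.9 CPM in empty vector cells and 39.4, 40.1 and 34.6 CPM in Col1a1-miR-29b cells. The groups were apart and the log2 fold change of 0.42 was close to that of Dhx58, but with a wider error (SE 0.19, 95% interval 0.02 to 0.82, adjusted p = 0.212). Ifi204 had overlapping groups (0.12, -0.11 to 0.36, adjusted p = 0.588). Trex1 was measured with the largest error, at 3.15, 6.41 and 1.64 CPM against 5.82, 10.6 and 4.08, with overlapping groups (0.87, SE 0.47, -0.14 to 1.88, adjusted p = 0.313). Atrip, the gene that contains Trex1, differed by 0.39 (adjusted p = 0.198).

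Among the signal relays no member passed. Mavs had the narrowest interval around zero (log2 fold change 0.04, 95% interval -0.09 to 0.17, adjusted p = 0.788). Tbk1 differed by -0.03 (-0.26 to 0.19, adjusted p = 0.908) and Tmem173 by 0.22 (-0.34 to 0.77, adjusted p = 0.715), the latter with an interval wide enough to hold a change as large as that of Dhx58.

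With TGF-β present, the same plasmid comparison asked about cells under the fibrotic stimulus. Of the members 1 was called higher, Dhx58, and none lower, against 12.9% of all genes called and 5.31% called higher. Higher genes made up 41% of the called, or 52.6% after total-count scaling. At an unadjusted p under 0.05 there were 5 members, and DESeq2 called 2. Over the 21161 tested genes the same counts were 5518 and 3491. The median over the members was 0.15 against 0.02 over all tested genes, with 9 of 10 positive.

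Dhx58 had 43.7, 49.6 and 37.4 CPM in empty vector cells with TGF-β and 62.8, 69.0 and 55.3 CPM in Col1a1-miR-29b cells with TGF-β. All 3 Col1a1-miR-29b libraries were above all 3 empty vector libraries. The level was 1.43-fold higher (log2 fold change 0.52, SE 0.10, 95% interval 0.30 to 0.74, adjusted p = 0.00445). This call held without each of the 6 libraries in turn (log2 fold change 0.42 to 0.62, adjusted p 0.00149 to 0.028). It was lost when only the 2 groups entered the fit (0.51, adjusted p = 0.0602) and when the change was tested against 1.5-fold, and Dhx58os differed by 0.41 (adjusted p = 0.231). Among the 5 called values of the members, over the 11 comparisons, it was the only one that held without each library in turn.

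Trex1 had 1.5, 2.52 and 3.62 CPM in empty vector cells with TGF-β and 11, 4.67 and 5.31 CPM in Col1a1-miR-29b cells with TGF-β. The groups did not overlap, but Col1a1-miR-29b replicate c was far above its group. The log2 fold change was 1.46 (SE 0.48, 95% interval 0.43 to 2.48, adjusted p = 0.0603), just outside the threshold, while DESeq2 gave 1.45 with an adjusted p of 0.0116. Over all alternatives the adjusted p ran from that value to 1, in the test against a 1.5-fold change, and without Col1a1-miR-29b replicate c it was 0.284 (log2 fold change 0.97). Atrip, around Trex1, differed by -0.07 (adjusted p = 0.86).

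The kinase Eif2ak2 had 296, 343 and 319 CPM against 353, 372 and 348 CPM with TGF-β. The groups remained apart, with a log2 fold change of 0.16 (95% interval 0.03 to 0.30, adjusted p = 0.111). Tbk1 was the only member with a negative value, at 77.8, 81.8 and 82.9 CPM in empty vector cells and 66.8, 65.9 and 66.8 CPM in Col1a1-miR-29b cells. Its groups were apart too (-0.28, -0.51 to -0.05, adjusted p = 0.105), and it was called lower when only the 2 groups entered the fit (-0.29, adjusted p = 0.0344). Ddx58 also had no overlap between groups (0.14, adjusted p = 0.118), whereas Ifih1 (0.13, adjusted p = 0.446), Zbp1 (0.19, adjusted p = 0.593), Ifi204 (0.02, adjusted p = 0.955), Mavs (0.04, adjusted p = 0.743) and Tmem173 (0.37, adjusted p = 0.412) overlapped. In each comparison of Col1a1-miR-29b with the empty vector, 5 of the 10 members had groups that did not overlap, and over all tested genes this held for 29% without and 30% with TGF-β. The 2 comparisons use different libraries, and Dhx58 was past the threshold in both.

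**Figure D2:**
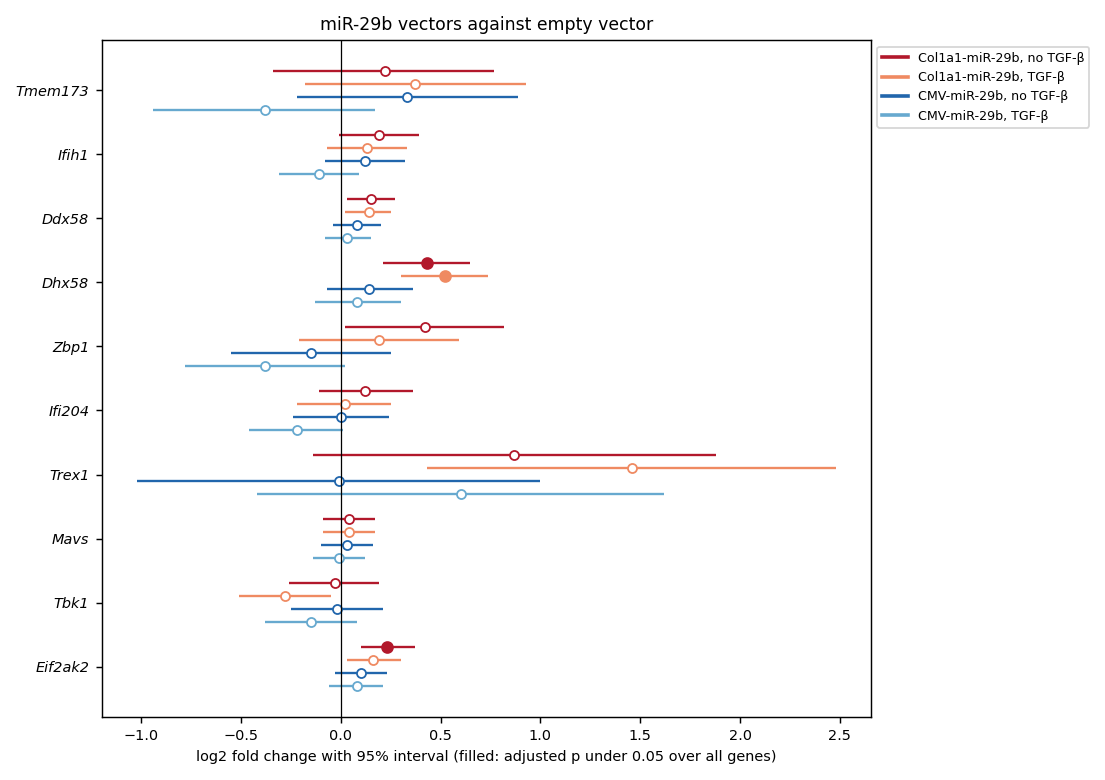
Log2 fold change (horizontal axis) of each member (vertical axis) in cells with each miR-29b plasmid against the empty vector, without and with TGF-β (colour), with 95% confidence intervals and filled symbols where the adjusted p was under 0.05. Dhx58 is called in both Col1a1-miR-29b against empty vector comparisons (0.43 and 0.52), whereas none of the CMV-miR-29b against empty vector values is called.

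CMV-miR-29b, which gave far more Mir29b-1 reads than Col1a1-miR-29b, was compared with the same empty vector libraries. None of the 10 members was called without or with TGF-β, with none at an unadjusted p under 0.05 and none by DESeq2 in either comparison. Almost nothing else was called, 0.00473% of all genes without TGF-β and 0.00945% with it, although 1156 and 2531 genes had an unadjusted p under 0.05 and DESeq2 called 37 and 294. Dhx58 had 65.6, 59.4 and 60.3 CPM in CMV-miR-29b cells, against 49.4 to 60.8 in empty vector cells. The ranges overlapped, and the log2 fold change was 0.14 (95% interval -0.07 to 0.36, adjusted p = 0.963). With TGF-β it had 42.9, 46.9 and 48.8 CPM, within the empty vector range of 37.4 to 49.6 (0.08, -0.13 to 0.30, adjusted p = 0.825). Eif2ak2 differed by 0.10 without TGF-β (adjusted p = 0.945) and by 0.08 with it (adjusted p = 0.696). The members' values ran from -0.15 (Zbp1) to 0.33 (Tmem173) without TGF-β and from -0.38 (Tmem173) to 0.60 (Trex1) with it. The Dhx58 interval without TGF-β still held a log2 change of up to 0.36.

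A direct test set the 2 miR-29b plasmids against each other. It shares the Col1a1-miR-29b libraries with the comparisons above, so its values are not independent of them. Without TGF-β no member was called, against 1.81% of all genes called and 0.803% called higher. Of the called genes 44.5% were higher, or 56.5% after total-count scaling. There were 2 members at an unadjusted p under 0.05 and 1, Zbp1, called by DESeq2, where all tested genes gave 3478 and 1226. Dhx58 was 0.29 higher on the log2 scale (95% interval 0.07 to 0.50, adjusted p = 0.165) and Zbp1 0.56 higher (0.16 to 0.96, adjusted p = 0.137), both with groups apart. Zbp1 had 33.7, 19.3 and 24.2 CPM in CMV-miR-29b cells. Eif2ak2 differed by 0.13 (adjusted p = 0.317), and the members ranged from -0.12 (Tmem173) to 0.88 (Trex1).

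With TGF-β the direct test called 1 member higher in Col1a1-miR-29b cells, Dhx58, against 1.93% of all genes called and 0.912% called higher. At an unadjusted p under 0.05 there were 5 members, and DESeq2 called 3, Dhx58, Tmem173 and Zbp1. All tested genes gave 3305 and 1108. The difference of Dhx58 was 0.43 (SE 0.10, 95% interval 0.21 to 0.65, adjusted p = 0.0454), with groups apart. This call was lost whichever of the 6 libraries was left out (0.36 to 0.51, adjusted p 0.0582 to 0.163). Tmem173 had 51.9, 36.2 and 38.3 CPM in Col1a1-miR-29b cells with TGF-β and 29, 27.7 and 18.2 CPM in CMV-miR-29b cells with TGF-β. The adaptor's groups were apart but the libraries within each spread widely (0.75, 95% interval 0.20 to 1.31, adjusted p = 0.155). Zbp1 had 38.0, 43.8 and 32.3 CPM against 28.0, 24.6 and 24.4 (0.57, 0.17 to 0.97, adjusted p = 0.137). The other values lay between -0.13 (Tbk1) and 0.85 (Trex1), with Eif2ak2 at 0.08 (adjusted p = 0.591).

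TGF-β itself was compared with no TGF-β within each plasmid. In empty vector cells no member was called (5.88% of all genes called, 2.01% called lower), and higher genes made up 65.9% of the called, or 53.1% after total-count scaling. There were 3 members at an unadjusted p under 0.05, and DESeq2 called 1, where all tested genes gave 3597 and 1753. Dhx58 had a log2 fold change of -0.36 (SE 0.10, 95% interval -0.58 to -0.14, adjusted p = 0.0514), and its groups overlapped because 1 TGF-β library, at 49.6 CPM, was level with the lowest untreated one. It passed the test without empty vector replicate d (-0.45, adjusted p = 0.027) or without the TGF-β replicate d (-0.48, 0.0121). Eif2ak2 differed by -0.14 (adjusted p = 0.263), and the members ranged from -0.55 (Trex1) to 0.23 (Zbp1).

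In Col1a1-miR-29b cells no member was called either (4.32% of all genes called, 1.32% called lower). At an unadjusted p under 0.05 there were 3, and DESeq2 called 1, Eif2ak2, where all tested genes gave 3025 and 1317. Eif2ak2 differed by -0.21 (95% interval -0.34 to -0.08, adjusted p = 0.0821) and Dhx58 by -0.27 (-0.49 to -0.05, adjusted p = 0.197), and for both the groups did not overlap. Tmem173 had the highest value (0.33).

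In CMV-miR-29b cells 1 member was called lower with TGF-β, Dhx58, against 4.95% of all genes called and 1.87% called lower. There were 4 members at an unadjusted p under 0.05, and DESeq2 called 1, where all tested genes gave 3310 and 1514. Dhx58 went from 65.6, 59.4 and 60.3 CPM to 42.9, 46.9 and 48.8 CPM, with no overlap. It fell by 0.42 on the log2 scale (SE 0.10, adjusted p = 0.0255). The call was lost without CMV-miR-29b replicate c (-0.37, adjusted p = 0.106) or e (-0.45, 0.051), or without the TGF-β replicate c (-0.36, 0.133) or d (-0.44, 0.0696), and was kept without the other 2. Eif2ak2 differed by -0.16 (adjusted p = 0.194), and the remaining members ranged from -0.54 (Tmem173, adjusted p = 0.339) to 0.06 (Trex1).

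Dhx58 was past the threshold in 1 of these 3 comparisons, but its TGF-β effect was not shown to differ between plasmids. The response in CMV-miR-29b cells minus that in empty vector cells was -0.06 (95% interval -0.37 to 0.25, adjusted p = 0.993), and the Col1a1-miR-29b response minus the empty vector response was 0.09 (-0.22 to 0.40, adjusted p = 1). No member was called in either test of the difference, none at an unadjusted p under 0.05 and none by DESeq2. Over all genes edgeR called 0 in both, with 961 and 1129 at an unadjusted p under 0.05 and 21 and 19 by DESeq2. Members ranged from -0.25 (Tbk1) to 0.58 (Trex1) for Col1a1-miR-29b and from -0.72 (Tmem173) to 0.61 (Trex1) for CMV-miR-29b. The 2 tests share the empty vector libraries.

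**Figure D3:**
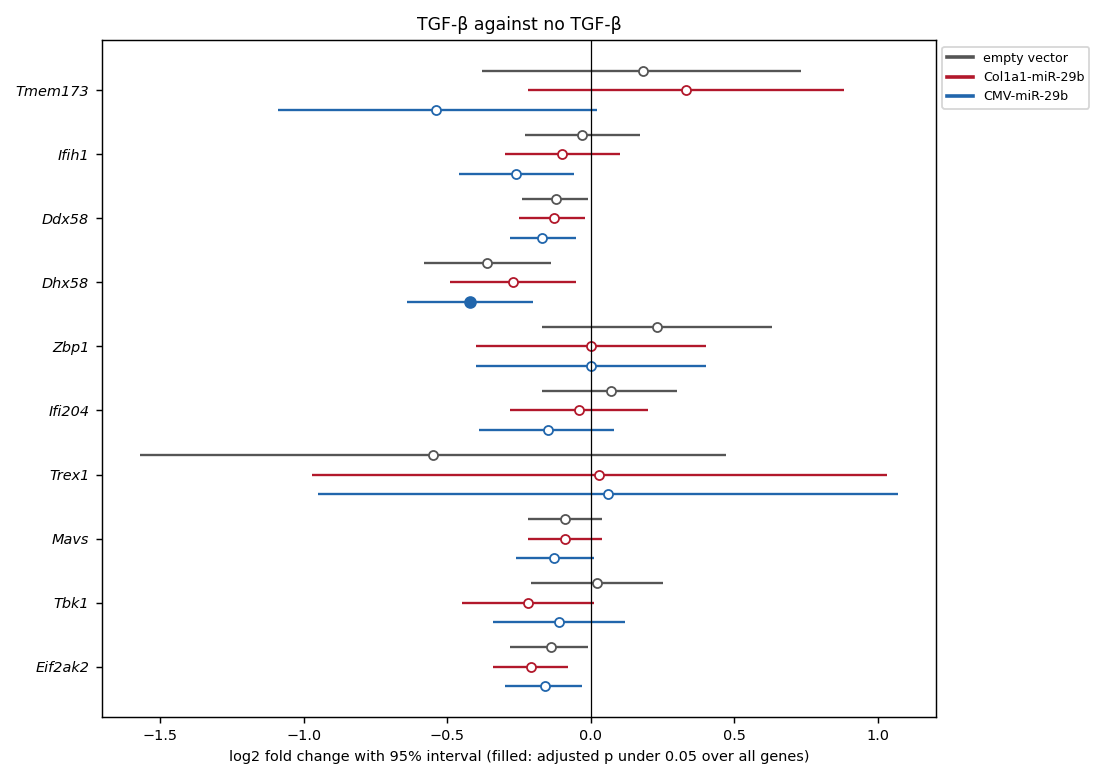
Log2 fold change with TGF-β (horizontal axis) of each member (vertical axis) in cells with each of the 3 plasmids, with 95% confidence intervals and filled symbols where the adjusted p was under 0.05. Dhx58 is negative with every plasmid (-0.36, -0.27 and -0.42) and is called in CMV-miR-29b cells.

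Around the members, the other genes of the pathway were taken from fixed lists, also chosen with earlier results of these data known. The list of other RNA sensing genes held 23 names, 1 of them, Lgp2, being another name of the member Dhx58. All 22 genes found in the deposited table were tested. Without TGF-β 6 were called higher in Col1a1-miR-29b than in empty vector cells and 1 lower. The 6 were Adar (0.28), which edits double-stranded RNA, and the Oas genes Oas2 (0.65), Oas3 (0.51), Oas1a (0.40), Oas1g (0.35) and Oas1b (0.34). The 1 lower was Prkra (-0.23), an activator of PKR, whose call was lost whichever of the 6 libraries was left out (adjusted p 0.0703 to 0.15). With TGF-β 7 were called higher and none lower: Tlr3 (0.64), the endosomal sensor of double-stranded RNA, Oas2 (0.61), Oas3 (0.53), Oas1a (0.42), Oas1g (0.40), Adar (0.24) and the antiviral protein gene Zc3hav1 (0.22). Leaving out 1 library at a time, the Zc3hav1 call was kept only without the unlettered Col1a1-miR-29b library, and the Tlr3 call only without empty vector replicate c or Col1a1-miR-29b replicate d. Adar lost its call without empty vector replicate c in both comparisons (adjusted p = 0.0546 and 0.053), and Oas3 lost it without TGF-β when empty vector replicate c or d was left out (0.0552 and 0.0507). Without empty vector replicate c the first count was 4 in place of 7. The list median was 0.11 without TGF-β and 0.16 with it, against 0.02 over all genes in both.

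Another 23 DNA sensing genes were tested, and 2 were higher without TGF-β, Nlrc3 (0.55) and the nucleotide hydrolase Samhd1 (0.15), and 2 with it, Rnaseh2c (0.39) and Samhd1 (0.17), with none lower. Cgas, which makes the ligand of STING, gave 0.24 without TGF-β (adjusted p = 0.589) and -0.07 with it (adjusted p = 0.883). Aim2, the inflammasome sensor of DNA, gave 0.30 (adjusted p = 0.0922) and 0.12 (adjusted p = 0.489). The list medians were 0.09 and 0.06. Leaving out any 1 of the 6 libraries took the counts from 2 to 0 without TGF-β and from 2 to 1 with it.

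Among the 24 adaptors and kinases of the signal relay, 1 was called higher and 1 lower in each comparison. Over all genes 6.27% were called without and 12.9% with TGF-β, so the 2 of 24 here and the 2 of 23 DNA sensing genes were near the first share and below the second. The higher gene was the interferon-inducible factor Irf7 (0.41, adjusted p = 0.00352, and 0.48, adjusted p = 0.000582), and the lower was Nfkb1 (-0.25 and -0.22), a subunit of NF-κB. Irf7 had 229 to 231 CPM in empty vector cells and 301 to 308 in Col1a1-miR-29b cells, so the groups lay well apart. Irf3, the factor that TBK1 phosphorylates, was not called (-0.01, adjusted p = 0.97, and -0.21, adjusted p = 0.0974), nor was the TBK1 relative Ikbke (0.03, adjusted p = 0.888, and 0.18, adjusted p = 0.223). The count of 2 dropped to 1 without empty vector replicate c or d or Col1a1-miR-29b replicate d or the unlettered one, and with TGF-β without any library except empty vector replicate d.

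Interferon genes themselves were barely measured. Only 11 of the 29 listed interferon and receptor genes were tested and none was called in either comparison, with 1 and 0 at an unadjusted p under 0.05 and 0 by DESeq2. Ifnb1, the interferon-β gene, had 0 to 18 counts per library, and its intervals were wide, with a log2 fold change of 0.68 (95% interval -1.75 to 3.12, adjusted p = 0.811) without TGF-β and 1.80 (-0.77 to 4.38, adjusted p = 0.387) with it.

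Genes known to respond to interferon were taken as a readout of the pathway. Of 30 interferon-stimulated readout genes, 16 were called higher in Col1a1-miR-29b than in empty vector cells without TGF-β (median 0.40) and 17 with it (median 0.37), none lower. Examples were the antiviral GTPase Mx1 (1.01 and 1.0), the ISG15 protease Usp18 (0.71 and 0.66), the RNA binding protein genes Ifit1 (0.74 and 0.75) and Ifit3b (0.65 and 0.55), Gbp2 (0.47 and 0.56) and Isg15 (0.40 and 0.38). The Ifit3b call was lost whichever library was left out (adjusted p 0.059 to 0.0996 without and 0.0503 to 0.168 with TGF-β), whereas the other 5 of these genes kept theirs without each library in turn. The chemokine Cxcl10 had 396 to 451 CPM in empty vector cells and 684 to 723 in Col1a1-miR-29b cells (0.73, adjusted p = 4.75e-06), and 335 to 356 against 606 to 634 CPM with TGF-β (0.84, adjusted p = 6.34e-07). Against CMV-miR-29b, 9 were higher without TGF-β and 12 with it. CMV-miR-29b against the empty vector gave 0 calls in both, with 7 and 3 at an unadjusted p under 0.05 and 0 and 2 by DESeq2. Over all tested genes 1156 and 2531 had an unadjusted p under 0.05, and DESeq2 called 37 and 294. Without TGF-β 25 of the 30 were positive with CMV-miR-29b, with a median of 0.14 against 0.003 over all genes. With TGF-β 14 were positive, with a median of -0.03 against -0.003. TGF-β lowered 6 of the 30 in empty vector cells, 4 when Col1a1-miR-29b was present and 15 under CMV-miR-29b, and raised none, where 2.01%, 1.32% and 1.87% of all genes were called lower. The test of the difference in TGF-β response from empty vector cells called 0 of the 30 for either plasmid in edgeR and in DESeq2, and before adjustment 0 of the 30 for Col1a1-miR-29b and 5 for CMV-miR-29b had a p under 0.05. The 15 became 7 without CMV-miR-29b replicate c and 8 without its TGF-β replicate c or e. Against CMV-miR-29b the 9 became 4 without the unlettered Col1a1-miR-29b library and 5 without Col1a1-miR-29b replicate c or CMV-miR-29b replicate d or e, and the 12 became 7 without Col1a1-miR-29b replicate c or CMV-miR-29b replicate d with TGF-β.

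**Figure D4:**
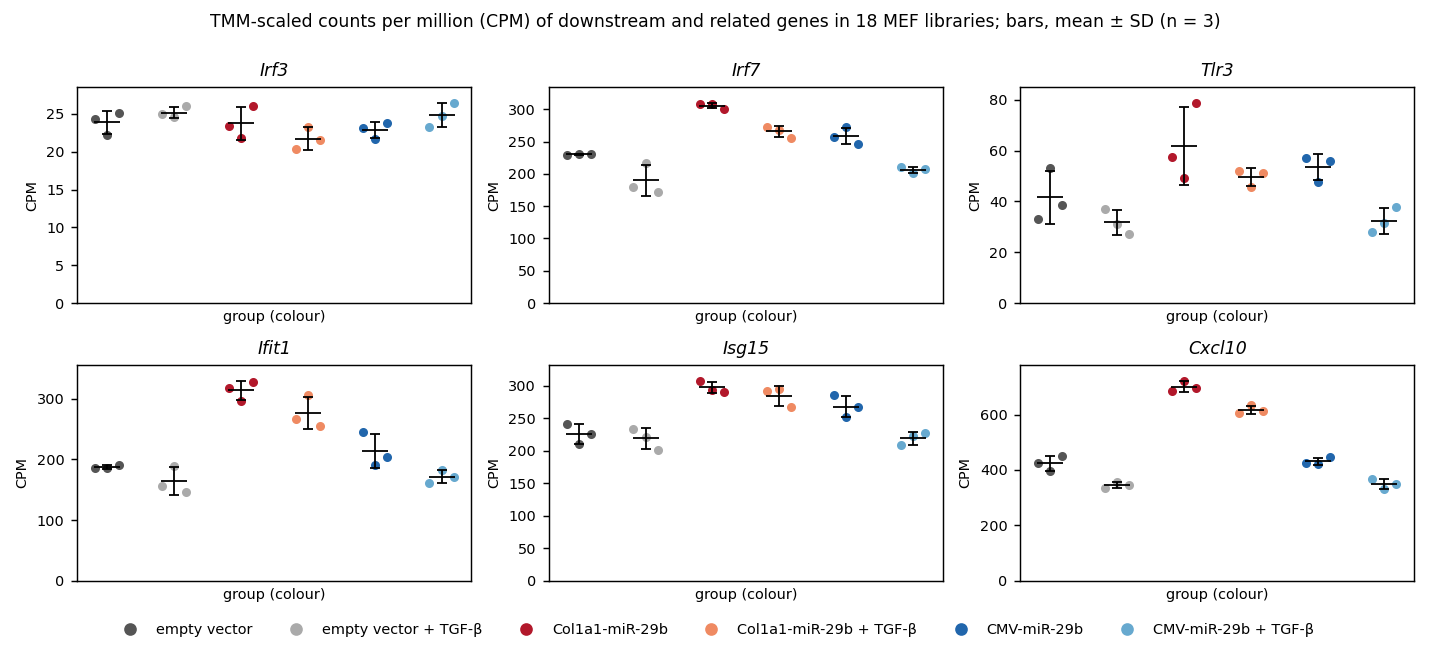
Level of Irf3, Irf7, Tlr3, Ifit1, Isg15 and Cxcl10 in all 18 libraries, in CPM after TMM scaling (vertical axis, a separate scale for each gene starting at 0), by group (horizontal position and colour), with 1 point per library and black bars for the mean ± SD (n = 3). Cxcl10 is at 684 to 723 CPM in Col1a1-miR-29b cells, above all empty vector and CMV-miR-29b libraries, whereas Irf3 was not called.

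**Figure D5:**
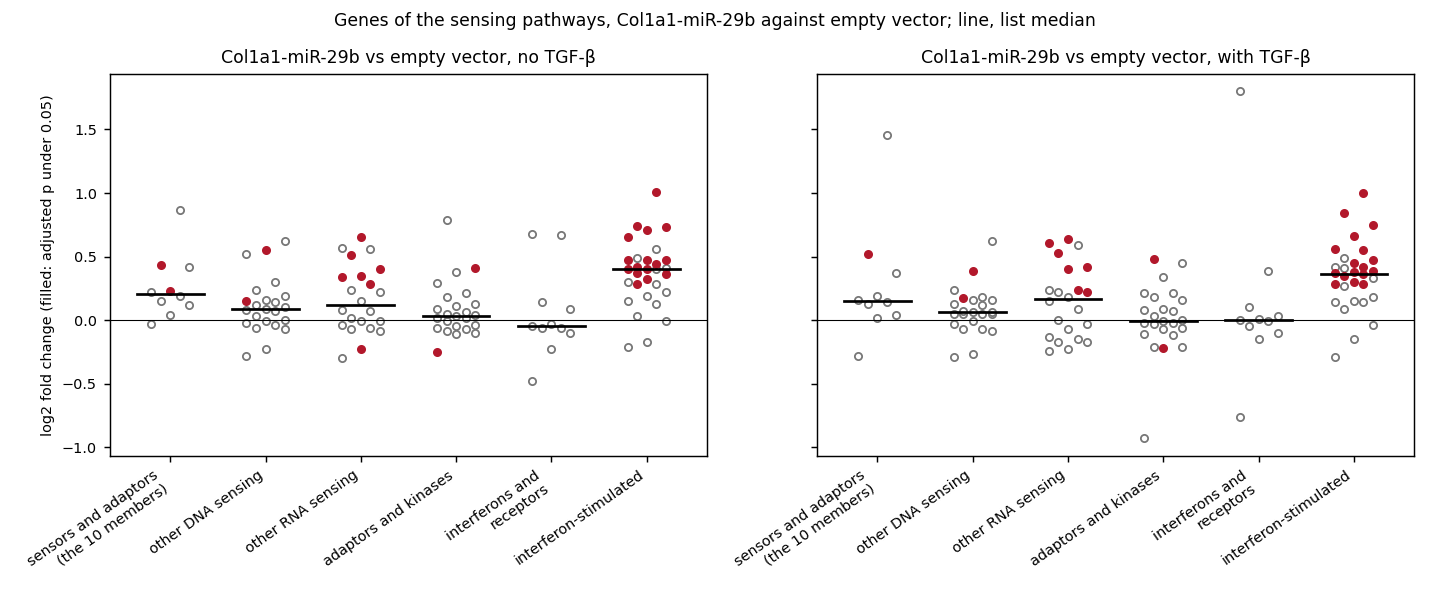
Log2 fold change (vertical axis) of each tested gene (points, filled where the adjusted p was under 0.05) of the members and of the 5 fixed lists (horizontal axis), Col1a1-miR-29b against empty vector, without and with TGF-β, with a line at the median of each list. The interferon-stimulated readout genes have the highest medians (0.40 and 0.37), and the interferon and receptor genes have medians of -0.05 and 0.00.

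Finally, the 5 genes whose pattern was most like the mean of the standardised members over the 18 libraries were Tdrd7 (Pearson r 0.943), Oas1g (0.938), Gbp3 (0.937), Iigp1 (0.933) and Mx1 (0.930). These r values describe libraries that share their groups. The members themselves followed that mean unevenly, with r from 0.16 (Tbk1) and 0.41 (Tmem173) up to 0.85 (Dhx58), each gene being part of the mean. Between Col1a1-miR-29b and empty vector cells, Oas1g (0.35 and 0.40), Gbp3 (0.47 and 0.39), Iigp1 (1.09 and 0.71) and Mx1 were called without and with TGF-β, and Tdrd7 was not (0.12, adjusted p = 0.0915, and 0.10, adjusted p = 0.126).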

How the data were processed

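Poly(A) RNA of 18 MEF libraries (6 groups of 3) was sequenced as pairs from a stranded kit. By the study's methods the authors trimmed with cutadapt, mapped with HISAT2 to Ensembl release 96 and assembled with StringTie, and used DESeq2 for differential expression. The submitters' notes also name mm9, but the coordinates of 52506 of the 55450 genes equal those of GENCODE M21 on GRCm38, which was taken as the build. Of the 10 members 7 had equal coordinates. The deposited table holds raw counts per gene and FPKM (scaled to transcript length and depth by the authors); how reads were assigned to genes is not given in the sources used here. The count columns of 2 Col1a1-miR-29b libraries carry a letter that matches no sample title, so they served as group libraries without a letter ("unlettered"); their 2 FPKM columns were not used, which left 16 libraries with FPKM.

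Counts were filtered by filterByExpr, scaled by TMM and fitted in 1 edgeR 4.0.16 quasi-likelihood model of 6 group means (R 4.3.3), with Benjamini-Hochberg adjustment over all 21161 tested genes and a threshold of 0.05 for 11 comparisons. Intervals use the total degrees of freedom of that fit, the residual ones plus those added by its moderation across genes. The SE is the absolute log2 fold change divided by the square root of the F statistic. Alternatives were DESeq2 1.42.0 (Wald test), limma 3.58.1 on log2(FPKM + 1) and log2(FPKM + 0.1), DESeq2 size factors or total counts as scaling, filters of at least 1 count in any and 10 counts in every library, the compared groups alone, the letter as a block, counts divided by 4, a test against 1.5-fold, and each library left out in turn. The fit was tested on simulated data. Replicate letters did not pair the libraries: same-letter deviations correlated at 0.0063 on average over 36 pairs, and different letters at -0.0031 over 70, on 13912 genes.

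The members and the lists were chosen with earlier results of these data known. Of each list, up to 4 further genes past the threshold were named by largest change in the comparison with the most members called, beside a fixed set (Cgas, Aim2, Irf3, Irf7, Ikbke, Ifnb1, Tlr3, Ifit1, Isg15, Cxcl10); Oas1b, Adar, Prkra, Zc3hav1 and Rnaseh2c were named after their values were seen. Promoter windows and the miRNA are from RefSeq (GRCm38.p6), 3′ UTRs from GENCODE M21. Protein identity among the helicases was planned but not computed.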

Additional observations from a re-analysis of the deposited data

How the results depend on the processing

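Depth was 65898017 counts or more per library, so for most member genes the 3 libraries per group rather than the counts limited precision. No paired design held, and of the 5 called member values in 110 only Dhx58 in Col1a1-miR-29b against empty vector cells with TGF-β kept its call without each library in turn. Of 2100 alternative values for the member genes, 1912 kept direction and side of the threshold, 46 lost and 18 gained a call and 124 changed sign; no value called under any setting changed sign. The same alternatives were run on the lists and named genes after the data were seen, where 725 of 900 values for named genes kept both, 165 lost and 3 gained a call and 7 changed sign. The causes were not tested.

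Count of member genes called, Col1a1-miR-29b against empty vector: without TGF-β the 2 became 1 with DESeq2 size factors, with at least 1 count in any library and with the groups alone, and 0 with the replicate block, without the 2 unlettered libraries, with both limma fits and against 1.5-fold, with 0 to 1 when a library was left out. With TGF-β the 1 became 2 with DESeq2, total-count scaling, at least 10 counts in every library and counts divided by 4, and 0 against 1.5-fold, with 1 to 2 when a library was left out. With the groups alone it was still 1, but the gene was Tbk1 (-0.29, adjusted p = 0.0344) in place of Dhx58 (0.51, 0.0602). For Col1a1-miR-29b against CMV-miR-29b, DESeq2 gave 1 in place of 0 without TGF-β. With TGF-β it gave 3 in place of 1, and the count was 0 with at least 1 count in any library, the groups alone, the replicate block, without the unlettered libraries, with both limma fits and against 1.5-fold, and 0 whichever library was left out. The TGF-β count in empty vector cells was 1 in place of 0 with DESeq2, its size factors, total-count scaling, at least 10 counts in every library, limma with 1 and counts divided by 4, and 0 to 1 when a library was left out. In Col1a1-miR-29b cells DESeq2 gave 1 in place of 0. In CMV-miR-29b cells the 1 became 0 with the replicate block, limma with 0.1 and against 1.5-fold, and 0 to 1 when a library was left out.

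With the replicate block, Dhx58 gave 0.41 (adjusted p = 0.127) without and 0.58 (0.025) with TGF-β against empty vector, 0.49 (0.158) against CMV-miR-29b and -0.42 (0.0588) for TGF-β in CMV-miR-29b cells, and Eif2ak2 0.19 (0.235); the letters only share a name.

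Lists, Col1a1-miR-29b against empty vector. Other DNA sensing genes: 0 in place of 2 without TGF-β with at least 1 count in any library, groups alone, replicate block, no unlettered libraries, both limma fits and 1.5-fold (0 when a library was left out); with TGF-β 0 with groups alone, replicate block and 1.5-fold and 1 with limma and 0.1 (1 when a library was left out). Other RNA sensing genes: 2, 1 and 0 in place of 7 with replicate block, limma with 0.1 and 1.5-fold (4 to 7 when a library was left out); with TGF-β 11 with DESeq2 and 0 with 1.5-fold. Other adaptors and kinases downstream: 1 in place of 2 without TGF-β with total-count scaling, at least 1 count, replicate block, no unlettered libraries and limma with 1, and 0 with limma and 0.1 and 1.5-fold; with TGF-β 1 with at least 1 count, groups alone, replicate block, no unlettered libraries and both limma fits and 0 with 1.5-fold (1 to 2 when a library was left out, in both). Interferon genes and their receptors: 1 in place of 0 with limma and 1. Interferon-stimulated readout genes: 9, 8 and 0 in place of 16 without TGF-β with replicate block, limma with 0.1 and 1.5-fold, and 0 in place of 17 with TGF-β with 1.5-fold. Against CMV-miR-29b the 9 became 1 with groups alone and replicate block, 4 without the unlettered libraries and with limma and 1, 2 with limma and 0.1 and 0 with 1.5-fold (4 to 8 when a library was left out), and the 12 became 19 with DESeq2, 6 with groups alone, 3 with replicate block, 5 with limma and 0.1 and 0 with 1.5-fold (7 to 9 when a library was left out). CMV-miR-29b against empty vector with TGF-β gave 2 in place of 0 with DESeq2. For TGF-β the 6 became 0 with 1.5-fold; the 4 became 9 with DESeq2, 7 with total-count scaling, 1 with replicate block and both limma fits, 2 without the unlettered libraries and 0 with 1.5-fold; and the 15 became 6 with groups alone, 9 with replicate block and limma with 1, 7 with limma and 0.1 and 0 with 1.5-fold (7 to 18 when a library was left out).

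Of the 96 member values called under no setting, 37 changed sign under some alternative, and only part of them is given here. Uncalled values that changed sign: Mavs, Col1a1-miR-29b against empty vector, was -0.01 with the replicate block. Tmem173 against CMV-miR-29b was 0.02 without the unlettered libraries, and 0.07 and 0.08 with limma and 1 and 0.1. Irf3 was 0.02 with total-count scaling and Ikbke -0.01 without the unlettered libraries. When a library was left out, without TGF-β, Mavs ran from -0.0028 to 0.07, Tbk1 from -0.13 to 0.06, Zbp1 (CMV-miR-29b against empty vector) from -0.40 to 0.02, Tmem173 (against CMV-miR-29b) from -0.26 to 0.13, Irf3 from -0.08 to 0.03 and Ikbke from -0.02 to 0.05. With TGF-β, Ifi204 ran from -0.04 to 0.07, Dhx58 (CMV-miR-29b against empty vector) from -0.01 to 0.18 and Cgas from -0.20 to 0.07. The TGF-β effect on Trex1 ran from -0.92 to 0.08 in empty vector and from -0.10 to 0.21 in CMV-miR-29b cells, and its difference between plasmids from -0.05 to 1.06 and from -0.02 to 0.98; that of Dhx58 for CMV-miR-29b minus empty vector ran from -0.15 to 0.05.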
